A study of Mus musculus with 2 samples.

Results

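Midkine (Mdk), pleiotrophin (Ptn) and 5 genes for their receptors were followed through the cell labels of notexin-injured mouse muscle. The 7 genes were fixed by name: the ligand genes Mdk and Ptn, and the receptor genes Ptprz1, Sdc3, Sdc4, Ncl and Lrp1. All 7 were found among the 27998 genes of the filtered count matrices, and their counts were summed for each cell label of the deposited annotation and for each day. Notexin is a snake venom phospholipase that destroys muscle fibres and leaves the stem cells able to rebuild them. The series holds 2 single-cell RNA sequencing (scRNAseq) libraries of whole dissociated tibialis anterior muscle from mice given as C57Bl/6 in the sample records and as C57BL/6J in the annotation table, 1 collected at 2 days post injury (dpi) and 1 at 7 dpi. Each library came from 1 mouse. The sample records give both mice as female and 7 months old, while the annotation table gives both as male and the 2 dpi mouse as 4 months old. Both animals were injured, so no uninjured level was measured.

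Midkine and pleiotrophin are the members of a small family of secreted, heparin-binding growth factors that are abundant in embryos, scarce in most adult tissues and often induced by injury. They bind the sulfated sugar chains of cell surface proteoglycans. Their receptors are of unlike kinds: Ptprz1 is a receptor tyrosine phosphatase that carries chondroitin sulfate, syndecan-3 (Sdc3) and syndecan-4 (Sdc4) are membrane proteoglycans that carry heparan sulfate, Lrp1 is a large endocytic receptor, and nucleolin (Ncl) is chiefly a nucleolar protein of ribosome assembly that also binds midkine at the cell surface. Syndecan-3 and syndecan-4 are known on muscle stem cells (MuSCs). Fibro/adipogenic progenitors (FAPs) are the mesenchymal cells of muscle that lay down matrix after injury.

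Limits on genes, transcripts and mitochondrial share left 3178 labelled cells at 2 dpi and 3196 at 7 dpi, with a median of 9010 and 6557 counts per kept cell. Levels are given as CPM, the usual per-million scale, on which a gene's counts are divided by all counts of its label. Ranges in brackets are 95% intervals, and they hold the error of counting alone. Because each day is a single library, no test between days was possible, and a difference between days is a difference between these libraries. The FAP labels held all 5 of their marker genes, and 4 of the 215 FAPs at 2 dpi and 0 of the 805 at 7 dpi held more marker counts of another class. Other labels held many markers of another class: cells with more marker counts of another class than of their own were 38 of 48 tenocytes, 112 of 175 Myoblasts/Progenitors, 51 of 137 MuSCs, 34 of 84 inflammatory monocytes, 57 of 159 M2 macrophages with high Cx3cr1 and 144 of 232 smooth muscle cells at 7 dpi, and 218 of 304 smooth muscle cells and 29 of 50 T cells at 2 dpi. At 7 dpi tenocytes held 41680 CPM of FAP markers and 15510 CPM of their own. Myoblasts/Progenitors held 50310 CPM of myofibre markers and 1133 CPM of their own. Whether such cells are mixed, or related cell types share these markers, was not tested. Leaving such cells out may therefore also drop true members of a label. Between the libraries, 1 kept barcode was shared.

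The ligand genes went from scarce to abundant. Over all labelled cells, Mdk had 287 counts at 2 dpi (8.44 CPM, 7.49 to 9.47) and 2793 at 7 dpi (101 CPM). Ptn had 9 counts at 2 dpi (0.265 CPM, 0.121 to 0.502) and 1895 at 7 dpi (68.6 CPM). Ptprz1 had 1 count at 2 dpi and 149 at 7 dpi (5.40 CPM). The other 4 receptor genes were read on both days. Sdc3 was at 158 CPM at 2 dpi and 149 CPM at 7 dpi, and Lrp1 was at 272 and 354 CPM. Sdc4 was at 201 and 95.3 CPM, and Ncl at 748 and 340 CPM. Totals over a library mix how many cells each label has with how much each cell holds, and the values by label follow.

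Mdk (ENSMUSG00000027239) lies on chromosome 2 from 91929805 to 91932297 on the minus strand in GRCm38. In FAPs it was at 14.4 CPM (11.3 to 18.1) in 215 cells at 2 dpi and at 283 CPM in 805 cells at 7 dpi, a log2 ratio of 4.30 (3.96 to 4.65). Pro-remodeling FAPs, the label of matrix-producing FAPs, held 18.3 CPM at 2 dpi and 333 CPM at 7 dpi. Within that single label the log2 ratio was 4.19 (3.83 to 4.57), close to the ratio over all FAPs. Adipogenic FAPs held 197 CPM (176 to 219) at 7 dpi, and FAPs labelled stem held 40.8 CPM (26.4 to 60.2). The 3 FAP labels thus stood in a clear order at 7 dpi, with neighbours separated beyond counting error and with MuSCs (109 CPM, 86.8 to 135.5) and Myoblasts/Progenitors (67.8 CPM) between the adipogenic and stem labels. Tenocytes, a label of 48 cells, held 282 CPM (235 to 336).

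At equal depth the same pattern was seen in the share of cells. After every cell was thinned to 2000 transcripts (UMIs), 44.7% of 495 pro-remodeling FAPs held a Mdk transcript at 7 dpi (40.2 to 49.2%), against 2.17% of 138 at 2 dpi (0.451 to 6.22%). Unthinned, the shares were 84.2% at 7 dpi, in cells with a median of 10156 counts, and 28.3% at 2 dpi, in cells with a median of 26218. Adipogenic FAPs were at 37.0%, tenocytes at 36.2%, MuSCs at 16.7% (10.8 to 24.1%) and Myoblasts/Progenitors at 11.4% (7.12 to 17.1%) at 7 dpi. T cells, which should lack Mdk, were at 1.21% of 248 cells (0.250 to 3.49%), and NK cells were at 2.97% of 101 (0.617 to 8.44%). The MuSC interval lay above those of both lymphocyte labels, the interval of Myoblasts/Progenitors overlapped that of NK cells, and endothelial cells (1.24% of 323) and monocytes and macrophages (1.59% of 753) lay inside the lymphocyte intervals. Unthinned, 31.4% of MuSCs (median 4787 counts) and 2.39% of T cells (median 3620 counts) held a Mdk transcript.

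Ptn (ENSMUSG00000029838) lies on chromosome 6 from 36714929 to 36810220 on the minus strand. In FAPs it had 0 counts among 5133205 at 2 dpi, which allows up to 0.584 CPM, and 1510 counts at 7 dpi (185 CPM), at least 317-fold higher against the limit of 3 counts. In the pro-remodeling label alone the counts were 0 and 1376, at least 273-fold higher. At 7 dpi Ptn was at 234 CPM in pro-remodeling FAPs, 80.2 CPM in adipogenic FAPs (67.1 to 95.1) and 3.26 CPM in stem FAPs, where it rested on 2 counts. The same order of FAP labels was therefore seen for both ligand genes, with the stem label lowest. Unlike Mdk, Ptn was highest outside the FAPs, in the neural label of glial cells, at 695 CPM (588 to 816) in 41 cells. Tenocytes held 416 CPM (359 to 481). At 2 dpi the 9 counts fell in neural cells (4), tenocytes (3), smooth muscle (1) and patrolling monocytes (1).

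The bases just before the Ptn start are shown because Ptn went from no count to abundant in FAPs, and those of Sdc4 because Sdc4 stood the other way in the same cells. Both are RefSeq sequence (GRCm38.p6), 5′ to 3′ on the gene's own strand, and stop before any annotated exon. Capitals mark matches on either strand to the core promoter words searched, which were the TATA word TATAAA, the CCAAT box CCAAT, the GC box GGGCGG and the E-box CACGTG. The Ptn window is chr6:36810221-36810429, and the Sdc4 window is chr2:164443189-164443438, which lies inside the longer annotated span of Sdc4.
Ptn: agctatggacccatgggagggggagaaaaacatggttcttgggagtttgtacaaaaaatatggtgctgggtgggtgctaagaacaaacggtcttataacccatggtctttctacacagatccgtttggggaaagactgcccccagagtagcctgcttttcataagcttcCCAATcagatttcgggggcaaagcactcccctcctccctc
Sdc4: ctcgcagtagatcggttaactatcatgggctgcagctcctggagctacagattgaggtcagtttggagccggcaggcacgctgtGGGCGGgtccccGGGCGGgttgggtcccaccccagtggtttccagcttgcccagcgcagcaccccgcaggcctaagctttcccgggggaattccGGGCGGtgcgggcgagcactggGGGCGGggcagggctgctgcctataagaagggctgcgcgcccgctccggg
The Ptn window of 209 bases has 49.8% G and C, 1 CCAAT and no other match. A CCAAT stands in 29.8% of all 32851 promoter windows of that length. The Sdc4 window of 250 bases has 68.0% G and C and 4 GGGCGG matches. A GGGCGG stands in 32.7% of windows of 250 bases. The windows of Ptprz1 (2 matches), Sdc3 (3) and Lrp1 (1) also hold GGGCGG, none of these 5 windows holds TATAAA or CACGTG, and no window was at hand for Mdk or, free of exons, for Ncl. These matches describe letters and are not evidence of binding.

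**Figure D1:**
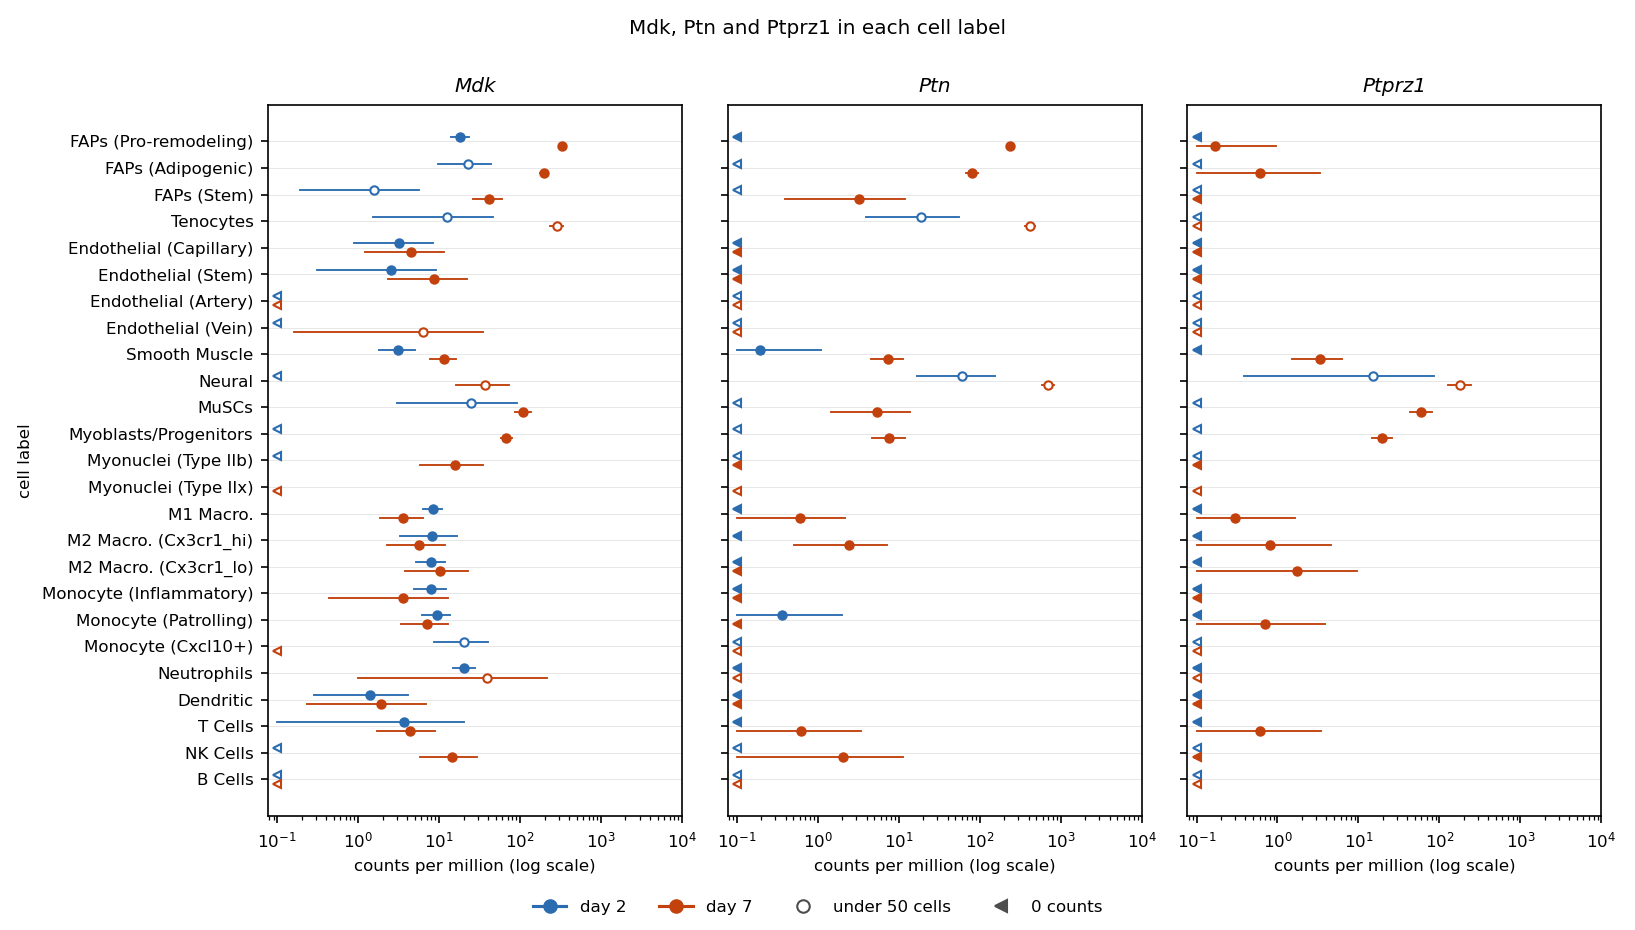
Level of Mdk, Ptn and Ptprz1 in each of the 25 cell labels at 2 dpi (blue) and 7 dpi (orange), in CPM on a log axis, 1 library per day. Circles are levels, open where a label has under 50 cells, lines are 95% Poisson intervals cut at the left edge, and triangles at that edge are labels with 0 counts. Mdk and Ptn in pro-remodeling FAPs reached 333 and 234 CPM at 7 dpi, and Ptprz1 was highest in neural cells, MuSCs and Myoblasts/Progenitors.

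The sources of the ligand transcripts followed from these levels and the cell numbers. At 7 dpi FAPs were 25.2% of the cells and held 82.7% of the 2793 Mdk counts (81.2 to 84.1%). Pro-remodeling FAPs alone held 70.2%, adipogenic FAPs 11.6%, Myoblasts/Progenitors 6.01%, tenocytes 4.51% and MuSCs 2.94%. Monocytes and macrophages, 23.7% of the cells, held 1.33%. For Ptn, FAPs held 79.7% of 1895 counts (77.8 to 81.5%), of which pro-remodeling FAPs held 72.6%, and tenocytes held 9.82% and neural cells 7.86%. Tenocytes were 48 and neural cells 41 of the 3196 cells. Without the tenocyte label, whose cells carried many FAP marker counts, FAPs held 86.6% of Mdk and 88.4% of Ptn.

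The Mdk sources at 2 dpi were different. Of its 287 counts, monocytes and macrophages held 49.8% (43.9 to 55.8%), FAPs 25.8% (20.8 to 31.3%), neutrophils 13.9% (10.2 to 18.5%) and smooth muscle 5.57%. Monocytes and macrophages held 48.5% of all counts of that library, so their share of Mdk was close to their share of RNA, whereas FAPs held 15.1% of all counts. Among labels with at least 50 cells, neutrophils (20.5 CPM, 14.7 to 27.96) and pro-remodeling FAPs (18.3 CPM, 14.1 to 23.3) had the highest levels and differed by less than counting error. The monocyte and macrophage labels with at least 50 cells lay between 7.93 and 9.36 CPM, and the neighbours among them did not differ beyond counting error. RNA in barcodes of 1 to 100 counts, taken as free RNA, was at 12.8 CPM of Mdk at 2 dpi (9.08 to 17.5), above the levels of these labels, and at 54.2 CPM at 7 dpi. At 2 dpi the intervals of neutrophils, of pro-remodeling FAPs and of all FAPs (14.4 CPM, 11.3 to 18.1) overlapped that of the free RNA. In monocytes and macrophages as a class, Mdk was at 8.67 CPM at 2 dpi and 4.92 CPM at 7 dpi, a log2 ratio of -0.82 (-1.38 to -0.29), and both levels lay under that day's free RNA. SoupX correction left 8.51 and 3.58 CPM. Mdk counts were also set beside those of the FAP markers Pdgfra, Dcn, Lum, Col1a1 and Col3a1. At 2 dpi the monocyte and macrophage labels with at least 50 cells held 392 to 538.5 Mdk counts per 1000 marker counts. The free RNA held 17.5 and pro-remodeling FAPs 1.74. Every other label outside FAPs with at least 50 cells also lay above the free RNA, from 27.0 in smooth muscle to 388 in neutrophils. The ratio alone thus did not set monocytes and macrophages apart, and the part of free RNA in their counts was not tested.

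**Figure D2:**
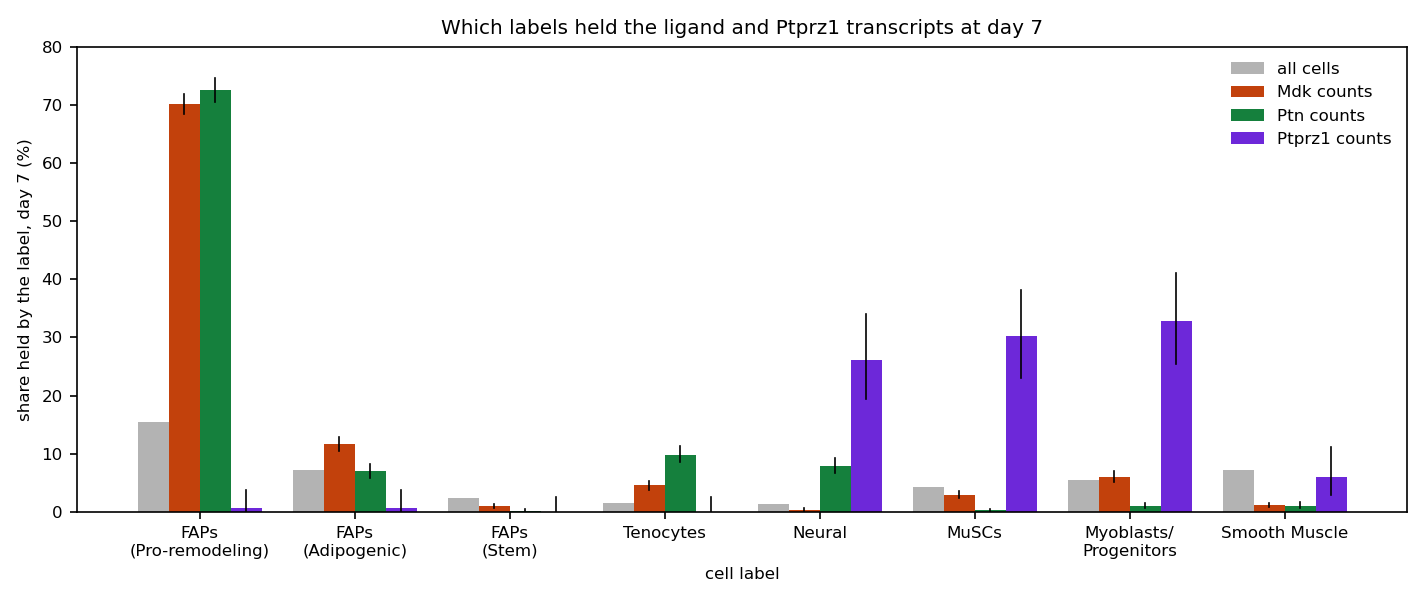
Share of all kept cells (grey) and of the Mdk, Ptn and Ptprz1 counts that each of 8 labels held at 7 dpi, in percent, with 95% Clopper-Pearson intervals as lines on the gene bars. Pro-remodeling FAPs were 15.5% of the cells and held 70.2% of the Mdk and 72.6% of the Ptn counts, while MuSCs, Myoblasts/Progenitors and neural cells held most of the Ptprz1 counts.

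Free RNA from FAPs would carry both ligand and FAP marker transcripts, so ligand counts were set beside the summed counts of 5 FAP markers (Pdgfra, Dcn, Lum, Col1a1, Col3a1). At 7 dpi the free RNA held 5.87 Mdk counts per 1000 FAP marker counts, and pro-remodeling FAPs held 4.97. Adipogenic FAPs held 3.40 and stem FAPs 0.745, so FAPs had no single ratio. At 2 dpi the free RNA (17.5) lay above the FAP labels (0.265 to 2.66). MuSCs held 66.0 per 1000 (82 Mdk counts) and Myoblasts/Progenitors 97.3 (168 counts), both above the ratio of the free RNA. Every other label outside FAPs with Mdk counts and at least 50 cells also lay above it, from 10.5 in dendritic cells (2 counts) through 16.4 in T cells (7 counts) to 72.3 in type IIb myonuclei (6 counts), so the ratio alone did not set the myogenic labels apart. In the 23 MuSCs with fewer than 3 FAP marker counts, Mdk was at 111 CPM (50.8 to 211), as high as in all MuSCs. In the 57 such Myoblasts/Progenitors it was at 22.5 CPM (12.9 to 36.5), under the 67.8 CPM of the whole label and overlapping the 16.5 CPM (6.07 to 36.0) of the 89 such NK cells. Without cells with more markers of another class, Mdk was at 102 CPM in MuSCs and 120 CPM in Myoblasts/Progenitors, so the order of these neighbours turned. Ptn behaved otherwise in MuSCs, with 3.22 per 1000 FAP marker counts (4 Ptn counts), close to the 3.19 of the free RNA. Myoblasts/Progenitors held 11.0 per 1000 (19 Ptn counts), above it. Neural cells held 1284 Ptn counts per 1000 FAP marker counts. In smooth muscle, Ptn was at 7.38 CPM over all 232 cells at 7 dpi, from 20 counts in 4 cells. It was at 0 counts in the 135 smooth muscle cells with fewer than 3 FAP marker counts.

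**Figure D3:**
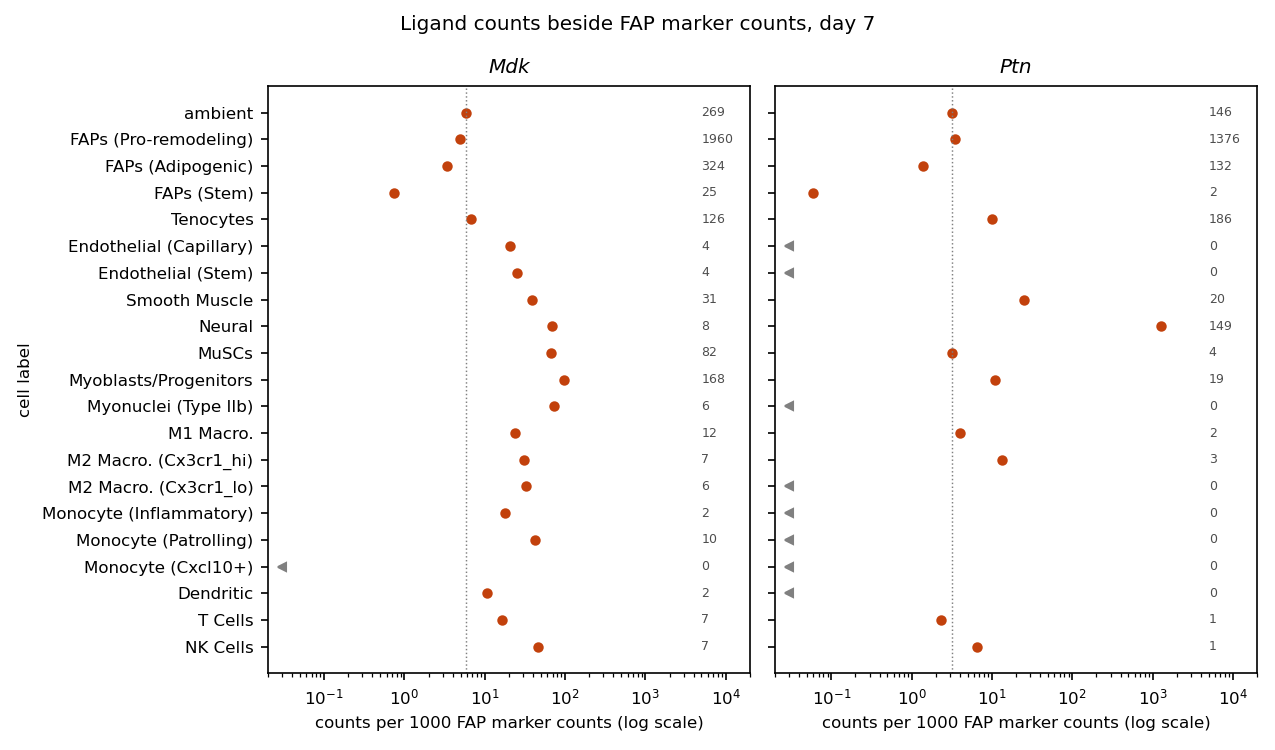
Mdk (left) and Ptn (right) counts per 1000 counts of the 5 FAP markers in each label with at least 40 cells and in the free RNA ("ambient") at 7 dpi, on a log axis, with the number of ligand counts at the right. The dotted line is the ratio in the free RNA (5.87 for Mdk, 3.19 for Ptn), triangles at the left edge are labels with 0 ligand counts, and MuSCs lie far from the line for Mdk (66.0) and on it for Ptn (3.22).

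Whether the same FAPs held both ligand transcripts was counted in the 495 pro-remodeling FAPs at 7 dpi. As sequenced, 189 cells held both, 228 held only Mdk, 23 only Ptn and 55 neither. Ptn was then found in 45.3% of the cells with Mdk (40.5 to 50.2%) and in 29.5% of those without (19.7 to 40.9%). At 4000 UMIs per cell these shares were 35.7% (30.4 to 41.3%) and 26.3% (19.9 to 33.5%). At 2000 UMIs they were 19.5% (14.5 to 25.3%) and 25.6% (20.5 to 31.1%), with 43 cells holding both. Over all FAP labels together at 4000 UMIs, Ptn was in 31.7% of 398 cells with Mdk (27.1 to 36.5%) and in 18.9% of 301 without (14.7 to 23.8%), a sum over labels whose levels of both genes differ. At 2000 UMIs those shares were 16.0% and 16.7%. Within pro-remodeling FAPs the intervals at 4000 UMIs overlapped and the order at 2000 UMIs was the other way, so no order was read. It was not tested, since the cells come from 1 mouse. In stem FAPs, as sequenced, both transcripts were read in 0 of 78 cells, which allows up to 3.85% of cells with both read (3 counts) and sets no limit on cells that express both.

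Ptprz1 (ENSMUSG00000068748), the receptor phosphatase of both ligands, lies on chromosome 6 from 22875502 to 23052916. At 7 dpi its 149 counts stood in few labels: Myoblasts/Progenitors held 32.9% (25.4 to 41.1%), MuSCs 30.2% (23.0 to 38.3%), neural cells 26.2% (19.3 to 34.0%) and smooth muscle 6.04%. The smooth muscle share was 9 counts in 5 of 232 cells. By level, neural cells were at 182 CPM (129 to 249), MuSCs at 59.9 CPM (43.7 to 80.2) and Myoblasts/Progenitors at 19.8 CPM, and MuSCs lay above Myoblasts/Progenitors by a log2 ratio with an interval of 0.98 to 2.21. Without cells with more markers of another class these labels were at 76.4 and 47.2 CPM. FAPs, the main ligand source, held 2 counts. Among Myoblasts/Progenitors, a split by the stem cell factor Pax7, chosen after values were seen, gave 39.4 CPM (28.8 to 52.5) in 95 cells with a Pax7 count and 2.29 CPM (0.472 to 6.69) in 80 cells without. The label as a whole held 50310 CPM of 5 myofibre markers, and their part in this split was not tested. The same split in MuSCs showed no difference, with 59.8 CPM (42.9 to 81.1) in 121 cells with a Pax7 count and 60.9 CPM (16.6 to 156) in 16 cells without. All 7 genes had lower values in the Myoblasts/Progenitors without a Pax7 count, Mdk (94.1 and 44.2 CPM) and Ncl (660 and 243 CPM) among them. The intervals overlapped for Ptn (5.31 to 17.9 with and 2.15 to 11.0 CPM without) and for Sdc3 (12.5 to 29.5 and 5.84 to 17.9 CPM). At 2000 UMIs, 11.4% of MuSCs (6.50 to 18.1%) and 5.71% of Myoblasts/Progenitors (2.77 to 10.3%) held a Ptprz1 transcript, against 0.403% of T cells and none of 495 pro-remodeling FAPs, which allows up to 0.606%. No day comparison was possible in the myogenic labels, since 2 dpi held 21 MuSCs, 16 of them with more marker counts of another class, and 1 Myoblast/Progenitor.

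Sdc4 (ENSMUSG00000017009), the heparan sulfate proteoglycan syndecan-4, lies on chromosome 2 from 164424247 to 164443887. In FAPs it was at 483 CPM at 2 dpi and 89.6 CPM at 7 dpi, a log2 ratio of -2.43 (-2.55 to -2.31). In pro-remodeling FAPs it was at 539 CPM (515 to 564), the highest of the labels with at least 50 cells at 2 dpi, and at 82.0 CPM (74.9 to 89.7) at 7 dpi. After thinning, 54.9% of FAPs held an Sdc4 transcript at 2 dpi and 15.5% at 7 dpi, so FAPs were lower in Sdc4 on the day on which they were higher in both ligand genes. Among labels with at least 50 cells, MuSCs led at 7 dpi at 292 CPM (254 to 333), above dendritic cells (218 CPM), which did not differ from M2 macrophages with low Cx3cr1 (184 CPM), nor these from Myoblasts/Progenitors (182 CPM), beyond counting error. Myoblasts/Progenitors with a Pax7 count held 355 CPM (322 to 391) and those without held 26.7 CPM (18.6 to 37.1), while MuSCs held 292 CPM with and 289 CPM (174 to 452) without a Pax7 count. Type IIb myonuclei held 0 counts. Endothelial cells were near 0 on both days, with 13 counts at 2 dpi and 2 at 7 dpi in the whole class.

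Outside FAPs the direction of Sdc4 was not uniform. Monocytes and macrophages had a log2 ratio of -1.08 (-0.82 with every cell weighted equally, which is under 2-fold). Among their labels with at least 50 cells on both days it ran from -0.80 in M2 macrophages with low Cx3cr1 to -1.82 (-2.39 to -1.29) in inflammatory monocytes. The summed dendritic markers were higher at 7 dpi in all 6 monocyte and macrophage labels, from 241 to 4228 CPM at 2 dpi and from 4316 to 12980 CPM at 7 dpi, with 241 and 12000 CPM in inflammatory monocytes. Their part in the ratios of this class was not tested for Sdc4, nor for Sdc3 or Mdk. Dendritic cells stood slightly the other way, at 177 CPM at 2 dpi and 218 CPM at 7 dpi (log2 ratio 0.29, 0.05 to 0.53). Smooth muscle showed no difference beyond counting error (-0.03, -0.44 to 0.37), but without cells with more markers of another class its ratio was -0.94. In T and NK cells the ratio was -2.52, but many of the 50 T cells of 2 dpi held markers of another class, and without all such cells the ratio was -1.75.

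Sdc3 (ENSMUSG00000025743), syndecan-3, lies on chromosome 4 from 130792537 to 130826319. Its level was highest in macrophages and monocytes, followed by endothelial cells, and lower in FAPs. Among labels with at least 50 cells, M2 macrophages with high Cx3cr1 (319 CPM) and low Cx3cr1 (306 CPM) led at 2 dpi, and did not differ beyond counting error. At 7 dpi M2 macrophages with low Cx3cr1 led at 473 CPM (418 to 532), followed by inflammatory monocytes at 365 CPM (316 to 419). Inflammatory monocytes had been at 165 CPM at 2 dpi, a log2 ratio of 1.14 (0.89 to 1.39). Without cells with more markers of another class, which were 0 of 276 at 2 dpi and 34 of 84 at 7 dpi, the level at 7 dpi was 327 CPM. In FAPs Sdc3 was at 23.8 CPM at 2 dpi and 72.6 CPM at 7 dpi, a log2 ratio of 1.61 (1.33 to 1.91). The ratios in monocytes and macrophages, endothelial cells, dendritic cells and smooth muscle were 0.42, 0.42, 0.51 and 0.27, all with intervals above 0 and all under 2-fold. The smooth muscle label held 3699 CPM of endothelial markers and 2308 CPM of its own at 2 dpi, and 5146 and 4210 CPM at 7 dpi. MuSCs were at 26.6 CPM (16.3 to 41.1) and Myoblasts/Progenitors at 14.9 CPM at 7 dpi, among the lower labels.

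Lrp1 (ENSMUSG00000040249), the endocytic receptor, lies on chromosome 10 from 127538161 to 127621148. FAPs were at 432 CPM at 2 dpi and 798 CPM at 7 dpi, a log2 ratio of 0.89 (0.82 to 0.96), and 57.8% and 78.2% of FAPs held a transcript after thinning. At 7 dpi the FAP labels led, with stem FAPs at 926 CPM (852 to 1006) and adipogenic FAPs at 885 CPM, which did not differ beyond counting error, above pro-remodeling FAPs at 760 CPM (738 to 783). Pro-remodeling FAPs, the highest FAP label for both ligand genes, were thus the lowest for Lrp1. Patrolling monocytes led at 2 dpi (574 CPM, 546 to 603) and were at 397 CPM at 7 dpi. Over all monocytes and macrophages Lrp1 was slightly lower at 7 dpi, with a log2 ratio of -0.28. MuSCs were at 160 CPM (132 to 191) and Myoblasts/Progenitors at 64.1 CPM at 7 dpi, and within the latter cells with a Pax7 count held 126 CPM and those without 9.15 CPM. In MuSCs the same split gave overlapping intervals, at 163 CPM (134.5 to 197) with and 122 CPM (52.6 to 240) without. Endothelial cells held under 10 CPM in each of their capillary and stem labels on both days.

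Ncl (ENSMUSG00000026234) lies on chromosome 1 from 86344719 to 86359400. It was read in every label, and in all 6 classes compared its level was lower at 7 dpi or within error of no difference. FAPs were at 1282 CPM at 2 dpi and 206 CPM at 7 dpi, a log2 ratio of -2.64 (-2.72 to -2.56). The ratio was -1.59 in endothelial cells, -1.44 in smooth muscle, -0.73 in monocytes and macrophages and -0.28 in dendritic cells. In T and NK cells it was -0.16 (-0.33 to 0.02), within counting error. Among labels with at least 50 cells, T cells (786 CPM) and NK cells (721 CPM) led at 7 dpi, not differing from each other beyond counting error, above MuSCs (558 CPM, 506 to 614) and Myoblasts/Progenitors (439 CPM). Pro-remodeling FAPs led at 2 dpi (1215 CPM) among labels with at least 50 cells. Some smaller labels held more at 2 dpi and others less. Stem FAPs (1462 CPM, 47 cells), adipogenic FAPs (1300 CPM, 30 cells), neural cells (1715 CPM, 9 cells) and MuSCs (3148 CPM, 21 cells) were among the higher. The FAP labels were at 188 to 226 CPM at 7 dpi, above only type IIb myonuclei (63.3 CPM) among labels with at least 50 cells.

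**Figure D4:**
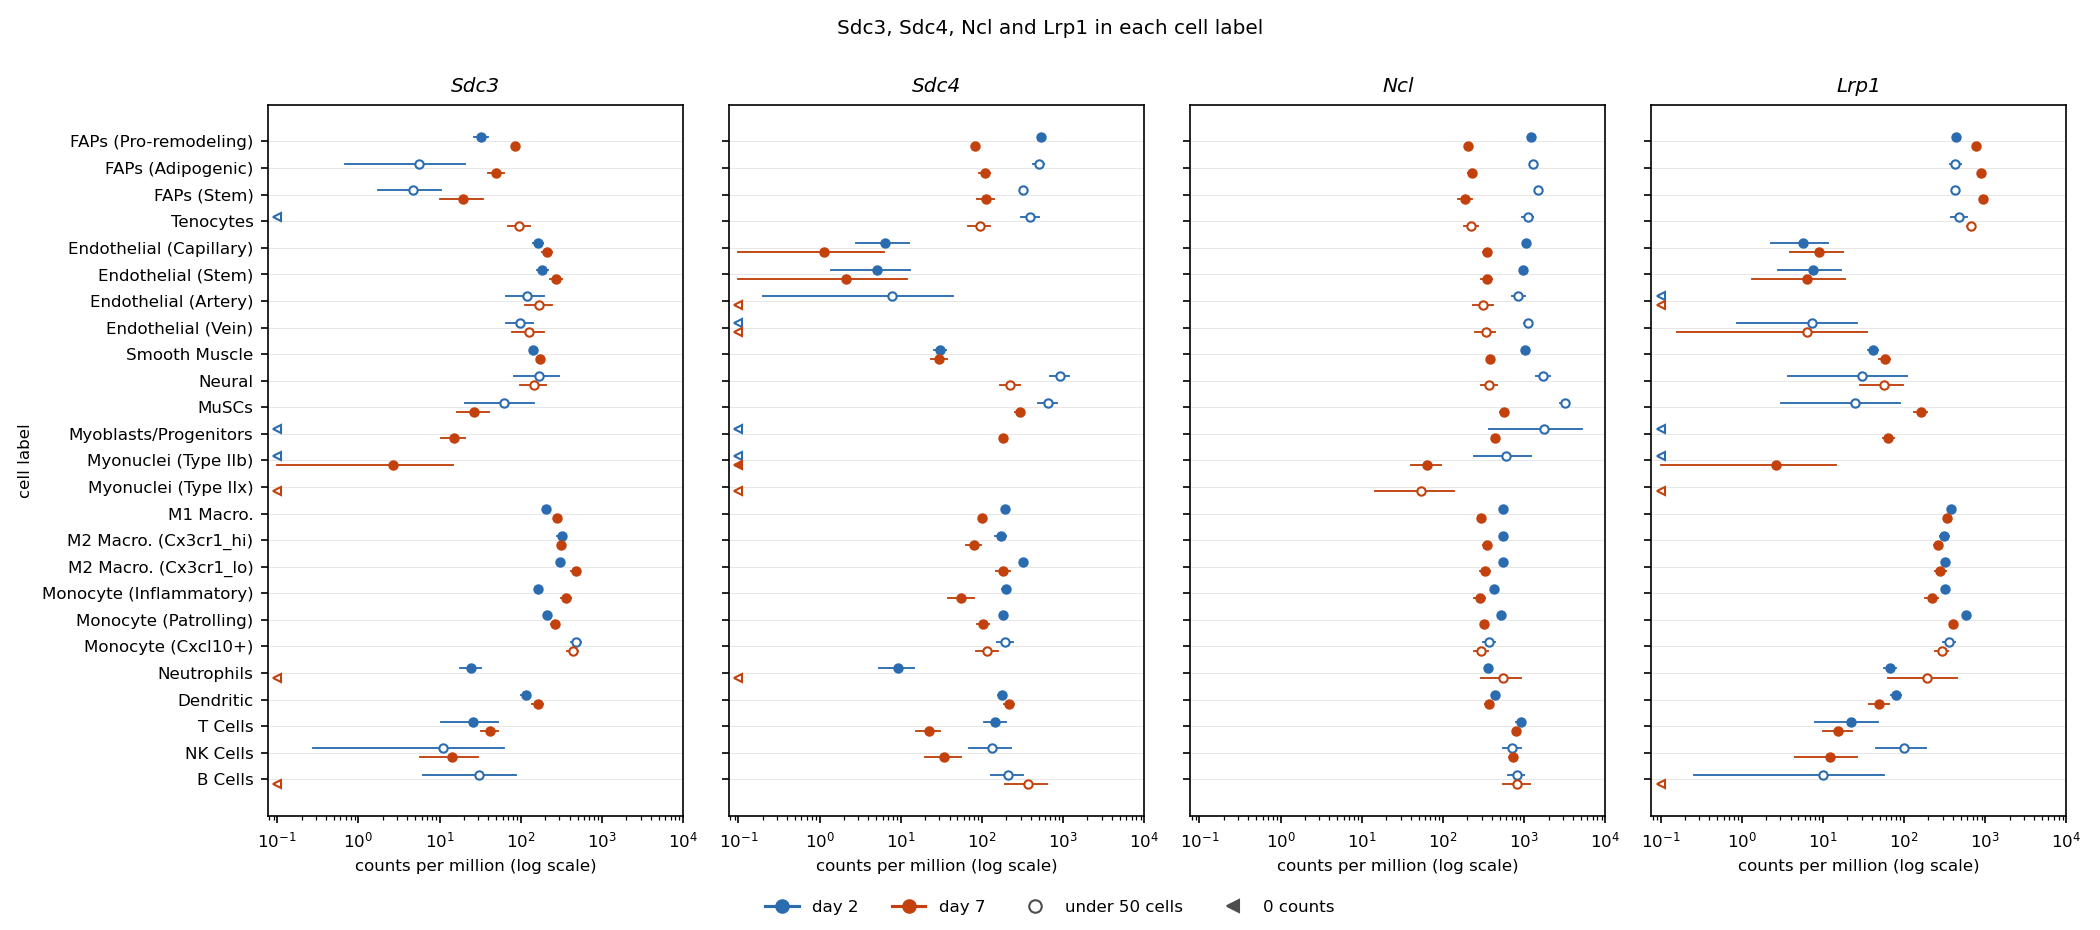
Level of Sdc3, Sdc4, Ncl and Lrp1 in each cell label at 2 dpi (blue) and 7 dpi (orange), in CPM on a log axis, 1 library per day. Symbols and lines are as in the plot of ligand levels. In pro-remodeling FAPs, Sdc4 (539 to 82.0 CPM) and Ncl (1215 to 202 CPM) were lower at 7 dpi and Lrp1 (436 to 760 CPM) and Sdc3 (32.5 to 84.6 CPM) were higher.

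FAPs also differed in depth, with a median of 24329 counts at 2 dpi and 8429 at 7 dpi. A CPM value gives the share of a cell's transcripts and not their number. Per FAP, Ncl had 30.6 counts at 2 dpi and 2.08 at 7 dpi, Sdc4 11.5 and 0.907, and Lrp1 10.3 and 8.08. Mdk had 0.344 and 2.87 counts per FAP, so Mdk was higher at 7 dpi by either measure, whereas Lrp1 was higher only as a share.

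Many genes differed between these libraries, so the members were read against all genes. In FAPs, 25.6% of 11851 genes with at least 20 counts were at least 2-fold higher at 7 dpi and 14.0% at least 2-fold lower. Of the 6 members so measured, Mdk, Ptn and Sdc3 were higher and Sdc4 and Ncl lower, and the median log2 ratio was 1.25 over the members and 0.21 over all these genes. Among monocytes and macrophages 19.3% of genes were higher and 12.8% lower, and of 5 members 0 were higher and Sdc4 was lower. In endothelial cells (14.9% and 9.5%) only Ncl of 3 members passed 2-fold, downward. In smooth muscle (14.1% and 7.86%) Mdk and Ptn were higher and Ncl lower of 6, but Ptn rested on 1 and 20 counts and its log2 ratio of 5.24 was 0.65 without cells with more markers of another class. Those 20 Ptn counts of 7 dpi lay in 4 of 232 smooth muscle cells. Mdk in smooth muscle, at 3.13 and 11.4 CPM, lay under the free RNA of each day (12.8 and 54.2 CPM), and in smooth muscle cells with fewer than 3 FAP marker counts it was at 2.76 CPM (1.32 to 5.07) and 5.71 CPM (2.30 to 11.8), with overlapping intervals. In dendritic cells (13.6% and 8.44%) none of 4 members passed 2-fold either way, and in T and NK cells (13.7% and 8.22%) Sdc4 and Lrp1 were lower of 4. Lrp1 rested on 15 and 31 counts, and in T cells alone its log2 ratio was -0.52 (-1.84 to 1.06), which holds 0, while in NK cells (21 at 2 dpi) it was -3.02 (-4.80 to -1.37), from 9 and 6 counts (99.4 and 12.2 CPM). The NK cells of 2 dpi held 2961 CPM of monocyte and macrophage markers and 1160 CPM of their own. The T cells of 2 dpi held 2599 CPM of basophil and mast cell markers and 360 CPM of their own, and the part of these in the ratios was not tested.

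**Figure D5:**
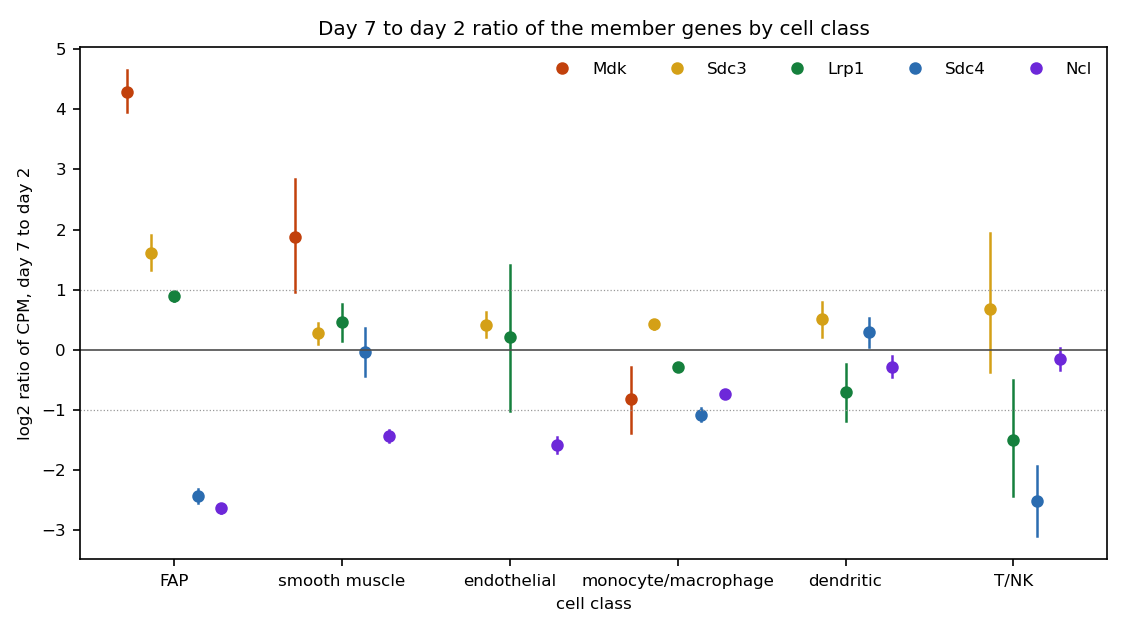
Log2 ratio of CPM, 7 dpi to 2 dpi, of Mdk, Sdc3, Lrp1, Sdc4 and Ncl in 6 cell classes, with 95% conditional binomial intervals as lines. The solid line marks no difference and dotted lines mark 2-fold, genes with under 20 counts in a class are left out, Ptn is not drawn because it had 0 counts in FAPs at 2 dpi, and the FAP points span from 4.30 (Mdk) to -2.64 (Ncl).

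The 4 receptors other than Ptprz1 are used by many cells, so the number of them read in a cell was counted at 2000 UMIs. At 7 dpi 76.5% of 132 MuSCs held a transcript of at least 1 of Ncl, Sdc4, Lrp1 and Sdc3, and 11 cells held 3. The share was 60.0% of 175 Myoblasts/Progenitors and 14.7% of 75 type IIb myonuclei. Patrolling monocytes were at 94.1% and pro-remodeling FAPs at 89.7%. The receptor transcripts were thus least often read in the myonuclei among labels with at least 50 cells.

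Other genes of the pathway were counted in the same way from lists. Of 19 other receptors and partners of the ligands, 13 were measured in FAPs, of which 6 were at least 2-fold higher at 7 dpi and 1 lower, with a median log2 ratio of 0.96, beside 25.6% and 14.0% of all genes and a median of 0.21. The integrin subunits Itgb3 (log2 ratio 1.99, 1.42 to 2.61) and Itga6 (1.85, 0.67 to 3.25) had the largest ratios, and the lipoprotein receptor Lrp8 (-4.57, 45 and 3 counts) and the integrin subunit Itgav (-0.35) the smallest. In endothelial cells 2 of 9 were higher and 4 lower (14.9% and 9.5% of all genes), with the coreceptor Nrp1 at 582 CPM at 2 dpi and 1629 CPM at 7 dpi and Itgb3 at 28 and 2 counts. Monocytes and macrophages had 1 of 12 higher, the integrin subunit Itga4 (1.25), and 2 lower, Lrp8 (-2.07) and the syndecan gene Sdc1 (-1.53), beside 19.3% and 12.8% of all genes. Smooth muscle had 3 of 14 higher and 2 lower, beside 14.1% and 7.86% of all genes. Dendritic cells had 4 of 9 and 1 (13.6% and 8.44% of all genes), and T and NK cells 1 of 10 and 1 (13.7% and 8.22%).

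Of 30 enzymes that build or edit heparan and chondroitin sulfate, the sugar chains that the ligands bind, 27 were measured in FAPs, of which 7 were higher and 1 lower, with a median of 0.46. The share higher was near the 25.6% of all genes, so the count says nothing particular about the enzymes, and single genes are given as values. The sulfatase gene Sulf2, whose enzyme removes sulfate from heparan sulfate outside the cell, was at 13.8 CPM at 2 dpi and 148 CPM at 7 dpi (log2 ratio 3.42, 3.08 to 3.79). The heparanase gene Hpse was at 1.36 and 8.83 CPM (2.70). The chondroitin sulfotransferase gene Chst11 was lower (-1.67, -2.16 to -1.19), and Csgalnact1, for an enzyme that starts chondroitin chains, was at -0.76. Of 23 in monocytes and macrophages, 5 were higher, with Chst15 (2.13) and Hpse (1.66) largest, and 1 was lower, Chst11 (-2.35), and the share higher was again near that of all genes (19.3%). In endothelial cells 4 of 21 were higher, with Chst15 (2.50) and Sulf1 (2.07) largest, and 1 was lower, B3galt6 (-1.32), beside 14.9% and 9.5% of all genes. The 1 lower call of 27 in FAPs and of 23 in monocytes and macrophages stood beside 14.0% and 12.8% of all genes. T and NK cells had calls both ways, with 6 of 22 higher and 7 lower (13.7% and 8.22% of all genes). Their median of 0.07 stood beside 0.04 over all genes, and the class had 71 cells at 2 dpi. Smooth muscle had 2 of 25 higher and 1 lower (14.1% and 7.86% of all genes), and dendritic cells 3 of 19 higher and 1 lower (13.6% and 8.44%).

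Partners of nucleolin in ribosome assembly were counted next. Of 21 such genes, 18 were at least 2-fold lower at 7 dpi in FAPs and 0 higher, with a median log2 ratio of -2.29, beside 14.0% of all genes lower and a median of 0.21. Nhp2 (-3.32, -3.51 to -3.15) and Fbl (-3.22), both parts of particles that modify ribosomal RNA, were smallest, and the polymerase I factors Ubtf (-0.27) and Rrn3 (-0.90) largest. In endothelial cells 15 were lower (9.5% of all genes) and 0 higher (median -1.54), with Myc (-2.52) and Wdr12 (-2.32) smallest. Monocytes and macrophages had 12 lower (12.8% of all genes) and 0 higher (median -1.17), with Gar1 (-2.40) and Dkc1 (-1.88) smallest. In T and NK cells 1 of 20 was lower and 1 higher (median -0.46), beside 8.22% and 13.7% of all genes. The Ncl ratio of that class was within counting error, though in T cells alone it was -0.21 (-0.41 to -0.01). Smooth muscle had 14 of 21 lower and 0 higher (median -1.27), beside 7.86% and 14.1% of all genes. Dendritic cells had 2 of 20 lower and 1 higher (median -0.23), beside 8.44% and 13.6% of all genes.

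Genes with the pattern most like each member over the 29 groups of label and day with at least 50 cells were found among 9009 genes, by Pearson correlation of log2(CPM + 1). The groups of a day share a library, so these values are descriptions. Mdk was most like Gfra1 (r = 0.895), Scrn1 (0.892) and 1500015O10Rik (0.888), and Ptn was most like Adamts17 (0.941), Fbn2 (0.923) and D630003M21Rik (0.906). Ptprz1 was most like Megf10 (0.945), Dcx (0.919) and Fgfr4 (0.909). Ncl was most like Ddx21 (0.943), a nucleolar helicase that is also in the list of its partners, and Lrp1 was most like Cd302 (0.952). Sdc3 was most like Gdi2 (0.907), and Sdc4 was most like Dse (0.846), an enzyme of dermatan sulfate synthesis from the list of sugar chain enzymes.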

How the data were processed

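The authors aligned 10x Genomics v3 reads to mm10 and made the filtered and raw gene counts per barcode (Cell Ranger 3.1.0 and Seurat 3.1.5 are named in the submitters' processing notes), and the deposited SoupX matrices hold estimated counts after removal of free RNA. Raw counts of barcodes with 1 to 100 counts gave the free RNA. Labels came from the deposited annotation. Kept cells were labelled table barcodes with at least 750 genes, 1000 transcripts and at most 30% mitochondrial transcripts in the SoupX values. Uncorrected counts were then summed per label (CPM). The authors' methods name DoubletFinder for doublets, and no caller was run here. Intervals were exact Poisson, Clopper-Pearson or conditional binomial at 95%, and a count of 0 was set against 3 counts (Python, SciPy 1.17.1). Alternatives were SoupX values, other cell limits, means over cells, removal of cells with more markers of another class, other scaling, thinning depths and count minimums. The interval code was tested on simulated data. Thinning drew 2000 UMIs per cell without replacement and left shallower cells out. The members and lists were chosen with earlier results of these data known. Named genes were the 7 members, at most the 2 largest and 2 smallest ratios per list and class, and up to 3 most alike genes per member.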

Additional observations from a re-analysis of the deposited data

Results flagged for a closer look

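Mdk, Sdc4 and Lrp1 stood in opposite directions in different classes, with 95% counting intervals on either side of 0, and the difference between classes was not tested because each day is 1 library. For Mdk the log2 ratio was 4.30 in FAPs and -0.82 in monocytes and macrophages, where the levels lay under the free RNA of each day. For Sdc4 it was 0.29 in dendritic cells and -2.52 in T and NK cells. For Lrp1 it was 0.89 in FAPs and -1.50 in T and NK cells, where T cells alone were at -0.52 with an interval that holds 0 (-1.84 to 1.06) and NK cells were at -3.02 (-4.80 to -1.37) on 9 and 6 counts.

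Barcodes that passed the cell limits but are not in the annotation table, 680 at 2 dpi and 477 at 7 dpi, held all 7 genes. Ptn was at 10.5 CPM there at 2 dpi, against 0.265 CPM in the labelled cells, and at 52.5 CPM at 7 dpi. Ptprz1 was at 3.32 CPM at 2 dpi and 24.1 CPM at 7 dpi, against 5.40 CPM in the labelled cells at 7 dpi. The 33 such barcodes of 2 dpi with at least 3 counts of 5 neural markers held 28 of the 60 Ptn counts and 13 of the 19 Ptprz1 counts, and 9 such barcodes of 7 dpi held 130 of 170 Ptn counts and 70 of 78 Ptprz1 counts. The labelled neural cells of 7 dpi held 149 Ptn and 39 Ptprz1 counts, so the shares given for the neural label leave out many counts in cells with neural markers. Mdk was at 7.17 and 40.2 CPM at 2 and 7 dpi, Sdc3 at 147 and 153 CPM, Sdc4 at 282 and 94.9 CPM, Ncl at 997 and 629 CPM, and Lrp1 at 261 and 143 CPM.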

How the results depend on the processing

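The log2 ratios of 6 genes in FAPs, Ptn as a bound, kept their direction and stayed within their intervals under SoupX values, no cell limits, stricter limits (1500 genes, 3000 transcripts, 15% mitochondrial), means over cells, removal of cells with more markers of another class, and median-of-ratios scaling. No ratio whose interval left out 0 reversed in any of the 6 classes. The Sdc3 ratio in T and NK cells, 0.68 with an interval that held 0, was -1.44 without cells with more markers of another class. The Sdc4 ratio there went from -1.08 with means over cells to -3.28 under stricter limits. Median-of-ratios scaling shifted the ratios of T and NK cells by -0.15. Shares of the ligand counts at 7 dpi moved with the weighting. Weighting cells equally, FAPs held 80.1% of Mdk and 71.5% of Ptn, and pro-remodeling FAPs 58.4% and 58.7%. Without cells with more markers of another class, FAPs held 91.6% and 90.6%, and pro-remodeling FAPs 77.7% and 82.5%. Under stricter limits, pro-remodeling FAPs held 72.0% of Mdk and 76.1% of Ptn, and FAPs 83.0% of Ptn. Without tenocytes, a choice made after seeing the data, FAPs held 86.6% and 88.4%. Pro-remodeling FAPs with Mdk were 27.5% at 1000 UMIs, 64.0% at 4000 and 15.6% with at least 2 Mdk UMIs. Those with Ptn were 13.7%, 32.3% and 9.70%, and those with both were 22.8% at 4000. In FAPs 1819 genes were 2-fold higher with a minimum of 100 counts, and 3784 were lower with no minimum, against 3031 and 1654. Means over cells moved the smooth muscle Sdc4 ratio to -0.85. Of 101 levels, 20 moved under means over cells and 17 without cells with more markers of another class. Mdk in Myoblasts/Progenitors was then 120 CPM and Ptprz1 47.2 CPM. Ptn in smooth muscle was then 3.53 CPM. No paired analysis was possible because each day is 1 library.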
